A study of Schizosaccharomyces pombe with 25 samples.

Results

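The mitochondrial genome genes of the fission yeast Schizosaccharomyces pombe are described here from the gene annotation that was deposited for the whole series. The members are all genes that the annotation places on the mitochondrial sequence, MT, which gave 38 of 7015 genes. They comprise 25 tRNA genes, 11 protein-coding genes and 2 ribosomal RNA genes. The sequence named MTR, with 4 genes, is a separate entry and was not counted. The labels list 25 chromatin immunoprecipitation sequencing samples in 13 groups, which ask how the histone variant H2A.Z (Pht1) and the Swr1 remodelling complex bear on the loading of CENP-A (Cnp1), the centromeric histone H3 variant. CENP-A was precipitated in 9 samples. In the strains labelled cc2∆:cc1, pht1∆, swr1∆, msc1∆ and wild type gave 1 sample each. In strains with no such label, pht1∆, swr1∆ and msc1∆ gave 1 sample each and wild type gave 2. Myc-tagged H2A.Z was precipitated in 12 samples, with 4 each from swr1∆, msc1∆ and wild type. Myc-tagged Swr1 and Flag-tagged Msc1 were each precipitated in 2 wild-type samples. No value of any sample was used, so the values below are positions and lengths in bases, with no binding, no replicate spread and no sequencing depth. Since 1 annotated sequence has no replicate, the values are set side by side without a test.

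Mitochondria keep a small genome of their own, which encodes a few membrane-bound subunits of the respiratory chain and of ATP synthase together with the rRNAs and tRNAs needed to translate them. The other mitochondrial proteins are made from nuclear genes and imported. In many fungi the mitochondrial tRNA genes lie between the longer genes and are cut out of long transcripts, and some genes carry self-splicing group I or group II introns whose reading frames encode homing endonucleases or reverse transcriptases.

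All 38 genes lay on the forward strand of the 19431-base sequence, in a single order that starts at the large ribosomal RNA gene. The large-subunit gene 21S_rRNA (MT:1-2822) came first and the small-subunit gene 15S_rRNA (MT:3131-4552) second among the longer genes. They were followed by cox1 (MT:4886-8790) and cox3 (MT:8947-9765), which encode subunits 1 and 3 of cytochrome c oxidase, the last complex of the respiratory chain. The gene for cytochrome b of complex III, cob1, spanned MT:10173-13862. The ATP synthase gene atp6 (MT:14756-15529) was next, then SPMIT.08 (MT:15954-16637), which the RefSeq annotation calls rps3, for ribosomal protein S3, a protein of the small ribosomal subunit. The ATP synthase genes atp8 (MT:16914-17060) and atp9 (MT:17806-18030) came after it, and cox2 (MT:18561-19307), encoding subunit 2 of cytochrome c oxidase, closed the order. The 3 cytochrome c oxidase genes and the 3 ATP synthase genes were thus not next to each other as groups: cox2 stood apart from cox1 and cox3, and SPMIT.08 stood between atp6 and atp8. These coordinates are those of build ASM294v2, which the submitters' processing notes name, counted from 1.

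**Figure D1:**
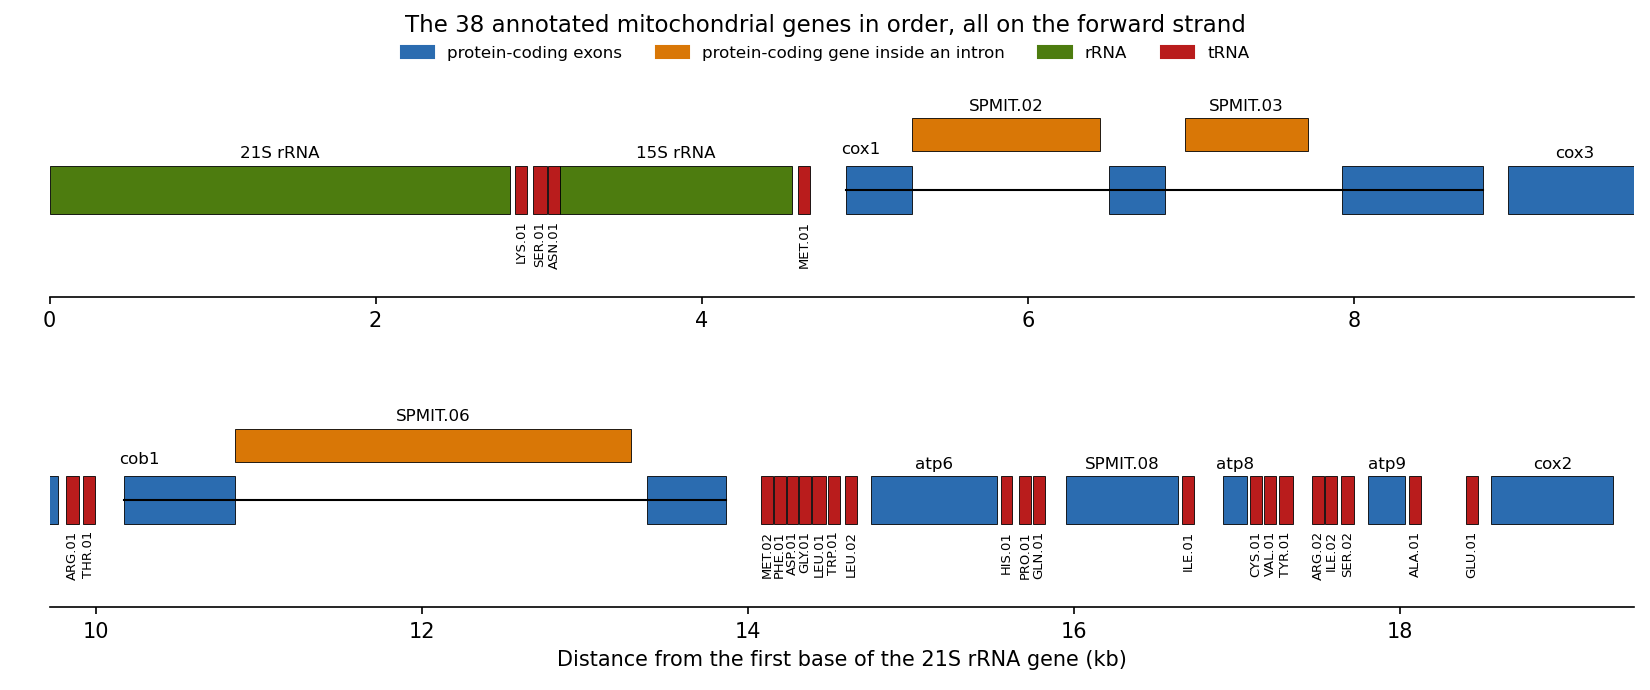
Map of the mitochondrial genes in 2 panels, with the distance from the first base of the 21S rRNA gene on the horizontal axis in kilobases. Boxes are exons, thin lines are introns, and the 3 orange boxes set above cox1 and cob1 are genes inside introns; the 25 tRNA genes fill 8 of the 10 intervals between the longer genes.

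Coding sequence, with stop codons, covered 10506 bases or 54.1% of MT, but a large part of it lay inside introns. Coding sequence of the 8 protein-coding genes outside introns covered 6174 bases, 31.8% of MT. The 3 genes inside introns added 4332 bases or 22.3%, more than the 2 rRNA genes together, which covered 4244 bases or 21.8%. The 25 tRNA genes covered 1863 bases or 9.59%. Intron sequence outside the nested genes amounted to 485 bases (2.50%), and 2333 bases (12.0%) lay between genes. By role, the 3 cytochrome c oxidase genes held 3180 coding bases (16.4% of MT), the 3 ATP synthase genes 1146 (5.90%), cob1 1164 (5.99%) and SPMIT.08 684 (3.52%). The reading frames inside introns therefore covered more of the sequence than the cytochrome c oxidase subunits did.

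Set beside the nuclear chromosomes, the mitochondrial sequence differed most in what its genes are. Its coding share differed little as long as the genes inside introns were counted. Coding sequence covered 54.1% of MT, against 59.2% of chromosome I, 57.0% of the modified chromosome II (IIc) and 51.6% of chromosome III. MT was thus below I and IIc and above III. Without the 3 genes inside introns, coding sequence covered 31.8% of MT, below each of the 3 chromosomes, whose introns held 0 protein-coding genes. Ribosomal RNA genes covered 21.8% of MT and 0.197% of the 3 nuclear chromosomes together, as far as the deposited annotation places them there. tRNA genes covered 9.59% of MT and 0.103% of the nuclear chromosomes. Introns took 24.8% of MT in all, but most of that is counted as coding because genes lie inside the introns. Introns outside nested genes took 2.50% of MT, where no protein-coding exon holds an untranslated part, and introns and untranslated exon parts that hold no coding sequence or RNA gene exon took 20.7% of the nuclear chromosomes. MT also held no exon of other RNA genes or pseudogenes, against 8.06% of the nuclear chromosomes. Bases between genes made up 12.0% of MT and 13.97% of the nuclear chromosomes.

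**Figure D2:**
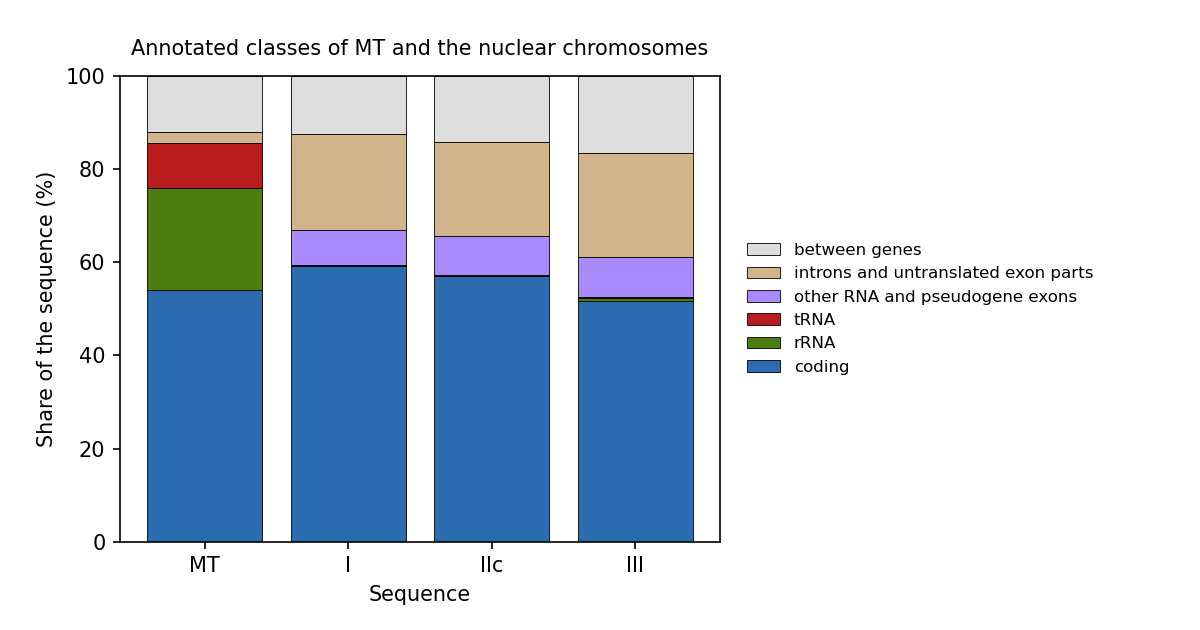
Share of each sequence, in percent of its length, covered by each annotated class, for MT and the nuclear chromosomes I, IIc and III. The coding share of MT (54.1%) includes the genes inside introns and lies between those of chromosomes I and III, while the rRNA and tRNA classes are thick in the MT bar and thin lines or invisible in the others.

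The spacing of the genes was tight and uneven. Taking the sequence as a circle and leaving out the 3 nested genes, 35 gaps separated neighbouring genes, with a median of 32 bases and a range of 0 to 274 bases. No neighbours overlapped, and 22 of the 35 gaps were under 50 bases. The median depended on the kinds of neighbours. It was 15 bases for the 17 gaps between tRNA genes and 68.5 for the 16 between a tRNA gene and a longer gene. For the 2 gaps between longer genes it was 140. Only 3 gaps exceeded 200 bases: 274 bases between the alanine and glutamate tRNA genes (SPMITTRNAALA.01 and SPMITTRNAGLU.01), 220 bases before cox1 and 218 bases after cob1. The asparagine tRNA gene SPMITTRNAASN.01 (MT:3060-3130) abutted the small rRNA gene, with 0 bases between them. Genes were 1.96 per kilobase on MT and 0.554 per kilobase on the nuclear chromosomes. The nuclear median gap was 96 bases, with overlaps counted as negative gaps down to -7816 bases, and 37.2% of 6169 neighbouring pairs overlapped. Nuclear genes that lay wholly within the span of earlier genes were left out of these pairs. Without nuclear non-coding RNA genes and pseudogenes, kinds that MT lacks, the nuclear median gap was 188 bases and 25.6% of 5157 pairs overlapped. Nuclear genes lay on the forward strand in 51.5% of cases. Over all nuclear genes in order, including those left out of the gaps, 60.2% of neighbours changed strand. Without non-coding RNA genes and pseudogenes these shares were 49.9% and 54.0%. Nuclear gene spans include untranslated parts and MT gene spans do not, so the gaps are measured from unlike ends.

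The abutting ends of the asparagine tRNA gene and the small rRNA gene are shown because nothing separates them. On the RefSeq mitochondrial sequence of assembly ASM294v3, which has 19433 bases and its own coordinates, the 2 genes (trnN and rns) also abut. The 30 bases at MT:3117-3146, forward strand, carry the end of the tRNA gene in capitals and the start of the rRNA gene in lower case.
trnN to rns: TTCCACTCAATAACGataaaaatatatata

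tRNA genes stood in front of nearly every protein-coding gene, and the gaps from a tRNA gene to a protein-coding gene were mostly longer than those from a protein-coding gene to a tRNA gene. Of the 8 protein-coding genes outside introns, 7 had a tRNA gene as their upstream neighbour, the exception being cox3, which followed cox1 after 156 bases. The 7 gaps from the tRNA gene to the start of the protein-coding gene measured 85 to 220 bases, with a median of 134. They were 220 bases for cox1, 180 for cob1, 179 for atp8, 134 for SPMIT.08, 89 for atp9, 86 for atp6 and 85 for cox2. On the downstream side, 6 of the 8 genes ran into a tRNA gene, after 20 to 218 bases with a median of 25. These gaps were 20 bases after atp6, 21 after atp8, 24 after SPMIT.08, 26 after atp9, 52 after cox3 and 218 after cob1. Apart from that after cob1, each of these gaps to a downstream tRNA gene was shorter than all 7 gaps from an upstream tRNA gene. The gaps to a longer gene were wider, with 156 bases after cox1 and 124 after cox2. The 2 rRNA genes had tRNA genes 34 and 38 bases after their ends. Only cox1 (followed by cox3) and cox2 (followed by 21S_rRNA across the sequence ends, after 124 bases) had no tRNA gene directly downstream.

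**Figure D3:**
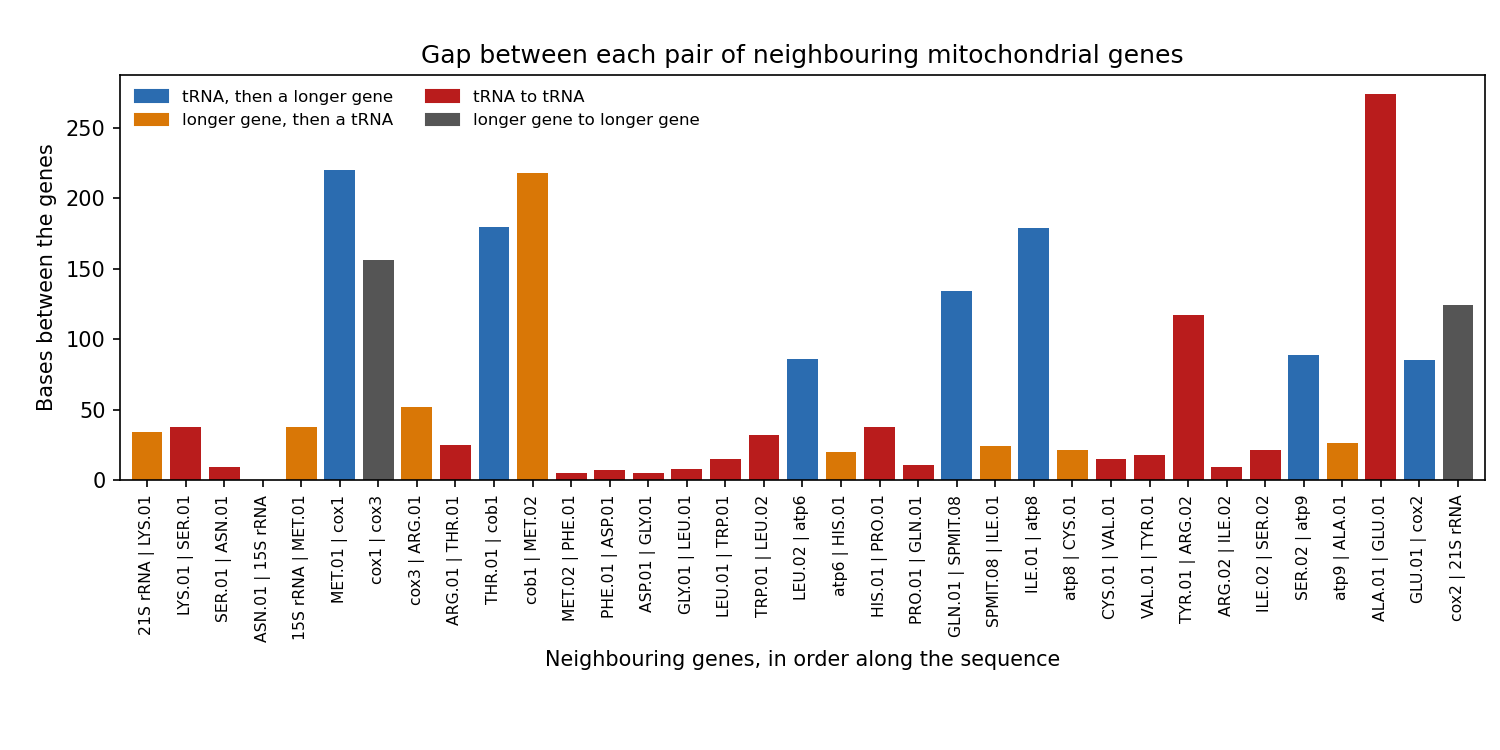
Number of bases between each pair of neighbouring genes, in order along the sequence, with nested genes left out and the last pair joined across the sequence ends. Bars are coloured by the kinds of the neighbours; blue bars (tRNA, then a longer gene) reach 85 to 220 bases before protein-coding genes and 0 before the 15S rRNA gene, while all but 1 of the orange bars (longer gene, then a tRNA) stay at or under 52.

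The 25 tRNA genes fell into 8 runs, each in a different interval between longer genes. The longest run, between cob1 and atp6, held 7 genes in 589 bases, for methionine, phenylalanine, aspartate, glycine, leucine, tryptophan and leucine in that order, with gaps of 5 to 32 bases. The next, between atp8 and atp9, held 6 genes in 635 bases, for cysteine, valine, tyrosine, arginine, isoleucine and serine. Its gaps ranged from 9 to 117 bases, the widest lying after the tyrosine gene. These 2 runs held 13 of the 25 tRNA genes (52.0%). Runs of 3 genes lay between the rRNA genes (lysine, serine, asparagine) and between atp6 and SPMIT.08 (histidine, proline, glutamine). Runs of 2 lay between cox3 and cob1 (arginine, threonine) and between atp9 and cox2 (alanine, glutamate). Single tRNA genes stood before cox1 (methionine) and before atp8 (isoleucine). Within runs, the 17 gaps between tRNA genes had a median of 15 bases, and 15 of them were under 50.

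The first 3 genes of the run after atp8 are printed to show how little lies between them. The stretch is MT:17084-17344 of the RefSeq sequence, forward strand, 261 bases, with the cysteine, valine and tyrosine tRNA genes in capitals and the 15 and 18 bases between them in lower case.
trnC to trnY: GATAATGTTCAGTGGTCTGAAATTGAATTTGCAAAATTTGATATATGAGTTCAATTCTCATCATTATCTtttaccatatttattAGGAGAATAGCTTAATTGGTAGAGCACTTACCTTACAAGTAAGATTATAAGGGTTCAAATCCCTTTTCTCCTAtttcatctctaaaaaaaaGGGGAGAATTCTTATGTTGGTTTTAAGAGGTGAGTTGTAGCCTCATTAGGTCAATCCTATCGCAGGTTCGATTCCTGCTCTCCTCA

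The tRNA genes covered all 20 amino acids. Arginine, isoleucine, leucine, methionine and serine had 2 genes each, and the other 15 kinds 1 each. Gene lengths ran from 69 bases (cysteine) to 86 bases (tyrosine), with a median of 73, which is also the median of the 171 nuclear tRNA genes. A length over 80 bases was found in 4 genes, SPMITTRNASER.01 and SPMITTRNALEU.01 with 83 bases each, SPMITTRNASER.02 with 82 and SPMITTRNATYR.01 with 86. The other 21 genes reached at most 77 bases. Serine, leucine and, in bacteria and organelles, tyrosine tRNAs are the ones known for a long variable arm, but SPMITTRNALEU.02 had only 74 bases. No mitochondrial tRNA gene had an intron, against 25 of 171 nuclear ones (14.6%).

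On the RefSeq sequence the 25 tRNA genes carried 23 different anticodons, and 3 of them shared CAU. They are trnM(cau)e and trnM(cau)f, which RefSeq assigns to methionine, and trnI(cau), which it assigns to isoleucine and which pairs with the deposited SPMITTRNAILE.02. In bacteria and many organelles, the first base of such an isoleucine anticodon is modified so that it reads AUA instead of AUG. AUA is used here: the 7 respiratory chain and ATP synthase genes hold 39 AUA codons and 54 AUG codons. The 3 genes are printed in full because the same anticodon sits in different bodies. They lie at MT:4591-4665, MT:14083-14155 and MT:17544-17615, forward strand, with the anticodon in capitals, written as DNA.
trnM(cau)e: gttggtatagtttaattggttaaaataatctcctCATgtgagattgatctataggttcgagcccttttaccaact
trnM(cau)f: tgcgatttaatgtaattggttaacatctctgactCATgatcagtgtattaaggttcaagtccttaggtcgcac
trnI(cau): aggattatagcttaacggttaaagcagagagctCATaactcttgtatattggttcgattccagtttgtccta
Aligned with gaps, trnM(cau)e and trnM(cau)f were identical in 64.1% of columns, trnM(cau)e and trnI(cau) in 57.1%, and trnM(cau)f and trnI(cau) in 61.0%. Over all 300 pairs of mitochondrial tRNA genes the identity ranged from 45.9% to 72.4%, with a median of 56.4%. All 3 pairs that share CAU thus lay above that median and below the highest value, which belonged to trnF(gaa) and trnI(gau).

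The tRNA set was small beside the codons it has to read. Each of the 8 codon boxes in which all 4 codons mean the same amino acid had 1 tRNA gene, and in all 8 the first anticodon base was U, which in mitochondria of several species is known to read all 4 codons of such a box. In the 7 respiratory chain and ATP synthase genes, 898 of 1821 sense codons (49.3%) matched an anticodon at all 3 bases and the others had no anticodon that matches them at all 3 bases. The third base was A or T in 83.6% of these codons, with T in 47.1%, A in 36.5%, C in 10.4% and G in 6.04%. The leucine codon TTA was the most used, with 200 occurrences (10.98%), followed by ATT with 111, GGT with 99 and TTC with 94. CGN arginine codons were rare in the 7 genes, with 5 occurrences, all of them CGA, against 31 of AGA and AGG together. The frames outside the 7 genes (the intron frames and rps3) held 27 CGN codons. The tRNA genes trnR(ucg) and trnR(ucu) match CGA and AGA.

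Introns were found in 2 of the 11 mitochondrial protein-coding genes, cox1 with 2 and cob1 with 1, and each of the 3 introns held 1 protein-coding gene. The other 36 mitochondrial genes had a single exon. The first cox1 intron (MT:5290-6499, 1210 bases) lay after an exon of 404 bases, and the second (MT:6845-7925, 1081 bases) after an exon of 345 bases, with a last exon of 865 bases. The cob1 intron (MT:10857-13382, 2526 bases) separated exons of 684 and 480 bases. Together the introns took 4817 bases, 24.8% of MT, of which 89.9% lay in the nested genes. With their introns, cox1 and cob1 spanned 7595 bases, 39.1% of the sequence. In the nuclear chromosomes, 2507 of 5123 protein-coding genes (48.9%) had introns, so genes with introns were less frequent on MT. Each MT intron was far longer than the nuclear median, which was 56 bases over 5298 introns. Only 1 nuclear intron exceeded 1000 bases. At 1127 bases, it was longer than the second cox1 intron (1081 bases). Of the genes nested in nuclear introns, 13 in all, 0 were protein-coding.

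**Figure D4:**
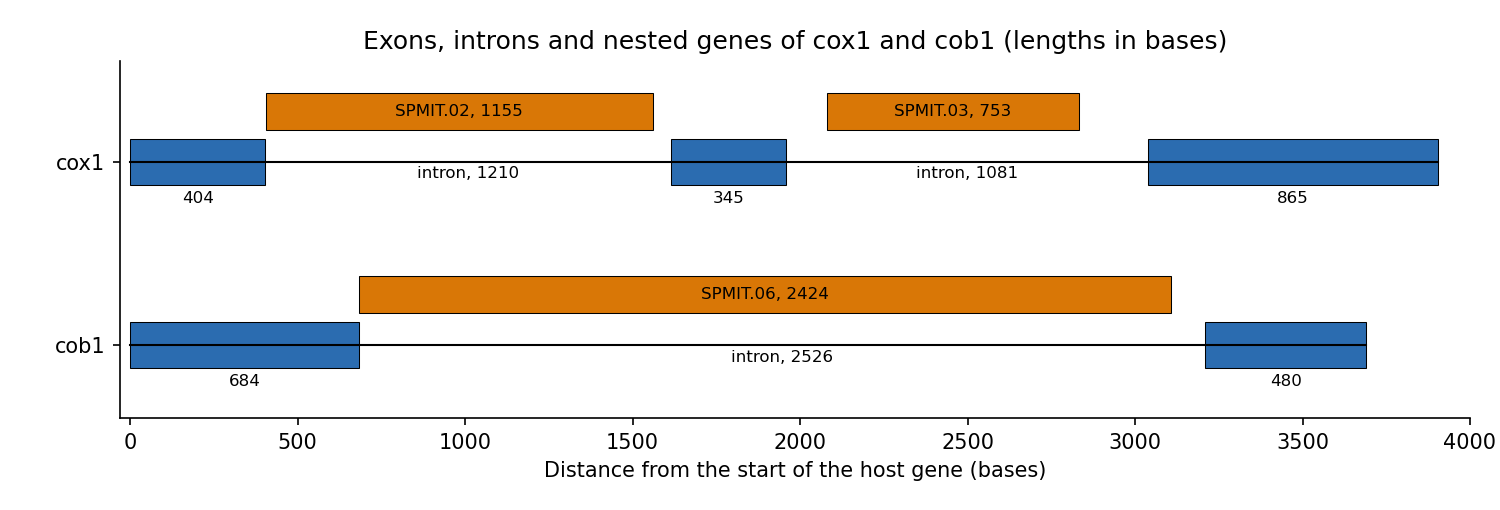
Exons (blue), introns (lines) and nested genes (orange) of cox1 and cob1, by distance in bases from the start of the host gene, with lengths in bases. SPMIT.02 and SPMIT.06 begin at or 1 base after the start of their intron, while SPMIT.03 begins 121 bases into its intron.

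The nested genes lay in the reading frame of the exon before them. SPMIT.02 (MT:5291-6445, 1155 bases), which RefSeq describes as a LAGLIDADG endonuclease domain protein, the domain family of many homing endonucleases, began 1 base into the first cox1 intron and filled 95.5% of it. The 404 coding bases before the intron leave a codon short of 1 base, and that 1 intron base completes it, so SPMIT.02 was in frame with cox1. SPMIT.06 (MT:10857-13280, 2424 bases), described in RefSeq as a reverse transcriptase domain protein, an enzyme typical of group II introns, began at the first base of the cob1 intron and filled 96.0% of it. It was in frame with the 684 coding bases before it. SPMIT.03 (MT:6966-7718, 753 bases), also described as a LAGLIDADG endonuclease domain protein, filled 69.7% of the second cox1 intron. It started 121 bases in, again in frame with the upstream exons, 40 codons after the first in-frame intron codon. On the RefSeq sequence, codon 15 of these 40 is TGA, which RefSeq reads as tryptophan. SPMIT.02 ended 54 bases before the end of its intron, SPMIT.03 207 bases and SPMIT.06 102 bases. The deposited annotation gives no start codon for SPMIT.02, SPMIT.06 and cox3, which is 3 of the 11 mitochondrial protein-coding genes, against 2 of 5123 nuclear ones. It gives no stop codon for cox3.

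The boundaries of the 3 introns are printed from the RefSeq sequence because the intron ends differ between the intron classes. RefSeq names the cox1 introns as group I and the cob intron as group II. Each line holds 15 exon bases in capitals and 15 intron bases in lower case, forward strand. The cox1 boundaries lie at MT:5274-5303, MT:6484-6513, MT:6829-6858 and MT:7910-7939, and the cob boundaries at MT:10844-10873 and MT:13370-13399.
cox1 intron 1, upstream end: TGGTGGTTGGACGGTtttaaagccgcagac
cox1 intron 1, downstream end: ttgttaactaaaatgATATCCACCACTATC
cox1 intron 2, upstream end: TGGTCATCCAGAGGTcaatttaataggcct
cox1 intron 2, downstream end: aaccaaaatttattgTTATATTTTAATTAT
cob intron, upstream end: TATTATCTGATAAAAttgcgccgttgtggt
cob intron, downstream end: gcgtcttagttcaatGATTTGATAACAATA
Both cox1 introns follow an exon that ends in T and end themselves in G, the form known for group I introns. The cob intron, as annotated, begins with TTGCG and ends with AAT.

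The RefSeq annotation gave the same genes in the same order and on the same strand, with 1 gene more and some other ends. All 38 deposited genes found 1 partner each, 7 by name and 31 by kind or amino acid together with overlap of at least 90%. Lengths were equal for 31 of the 38, among them 23 of the 25 tRNA genes. Of the 7 others, 21S_rRNA had 2822 bases as deposited and 2823 in RefSeq, and 15S_rRNA had 1422 as deposited and 1421 in RefSeq. The coding length of cox1 was 1614 bases as deposited and 1617 in RefSeq, that of cox3 819 as deposited and 810 in RefSeq, and that of SPMIT.03 753 as deposited and 972 in RefSeq. The arginine gene SPMITTRNAARG.01 had 77 bases as deposited and 72 in RefSeq, and the glutamate gene SPMITTRNAGLU.01 72 as deposited and 73 in RefSeq. The large and small rRNA genes thus differed by 1 base each, and SPMIT.03 by 219. All 27 genes from SPMITTRNATHR.01 onward started 2 bases later in RefSeq, which is the difference in length between the sequences. For cox3 the deposited annotation gives 273 codons and no stop codon, while RefSeq gives 270 codons that include the stop TAA. These counts are therefore of unlike kinds. The stretch from the end of cox1 to the arginine tRNA gene, in which cox3 lies, measured 1027 bases in the deposited annotation and 1026 in RefSeq.

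The additional RefSeq gene was rnpB, which encodes the RNA of RNase P, the enzyme that cuts the leader off tRNA precursors. It measured 274 bases and lay between the alanine and glutamate tRNA genes with 0 bases to either. The widest deposited gap, also 274 bases (MT:18130-18403), separated the deposited genes for the same tRNAs. The widest gap of the deposited annotation is therefore occupied in RefSeq, and of the 3 deposited gaps over 200 bases 2 remain, those before cox1 and after cob1. Both ends of rnpB are printed, with the end of the left gene in capitals, from MT:18117-18146 and MT:18391-18420 of the RefSeq sequence, forward strand.
trnA to rnpB: GTACCAGAATCTCCAttttccccctccaaa
rnpB to trnE: ATAAGATTCCTAGTTggctctattgtctaa

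SPMIT.03 was the gene whose extent differed most, and both of its deposited ends fell on codons that can be named. Counted in the frame that continues cox1 from the first in-frame codon of the intron, RefSeq gives 324 codons with the stop TAG, and the deposited gene runs from codon 41 to codon 291. On the RefSeq sequence codon 41 is ATG, the only ATG of the frame, and codon 291 is TGA. RefSeq reads this sequence with genetic code 4, in which TGA means tryptophan, while TGA is a stop in the standard code. The 27 bases around each codon are shown with the codon in capitals, codon 41 from MT:6953-6979 and codon 291 from MT:7703-7729, forward strand.
Codon 41: tttatagtaaaaATGttaaaacaatta
Codon 291: agctatttaaaaTGAagaaaagcttat
TGA also occurred inside other frames. The RefSeq frame paired with SPMIT.06 holds TGA at codons 22, 81 and 170, and rps3, paired with SPMIT.08, at codon 175. SPMIT.06 and SPMIT.08 had the same length as in RefSeq. The frame of the second cox1 intron holds TGA at codon 15 as well as at codon 291, and codon 15 lies before the deposited start at codon 41. In all, the 11 RefSeq frames held 6 TGA codons, all of them in the intron frames and rps3. Why the deposited SPMIT.03 ends at codon 291 was not tested. The 7 respiratory chain and ATP synthase genes held 0 TGA and 37 TGG codons.

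The only tryptophan tRNA gene, trnW(cca), has an anticodon that pairs fully with TGG, so its sequence bears on how TGA could be read. It is printed from MT:14494-14565 of the RefSeq sequence, forward strand, with the anticodon in capitals. Whether the first base is edited or modified in the RNA cannot be read from DNA.
trnW(cca): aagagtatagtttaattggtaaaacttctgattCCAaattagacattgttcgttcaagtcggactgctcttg

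Base composition, read from the RefSeq sequence, differed between the kinds of gene when their bases were pooled, while single genes of different kinds overlapped. The whole mitochondrial sequence held 30.1% G and C, against 36.1% for chromosome I, 35.9% for II and 36.2% for III. The tRNA genes were richest with 38.7% over all their bases, and single genes ranged from 27.5% to 47.9% with a median of 38.4%. The rRNA genes held 31.95%, coding sequence outside introns 29.6%, intron frames 29.0%, rnpB 24.8% and the bases between genes 22.5%. Within the coding genes, atp9 (38.2%) and cox1 (33.0%) were highest, and rps3 (22.5%) and atp8 (19.1%) lowest. The reverse transcriptase frame in cob, at 32.2%, was above the endonuclease frames in cox1, at 25.8% and 24.9%. The third codon position was A or T in 74.7% of codons in atp9 and in 94.7% in rps3, with the other frames between them.

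**Figure D5:**
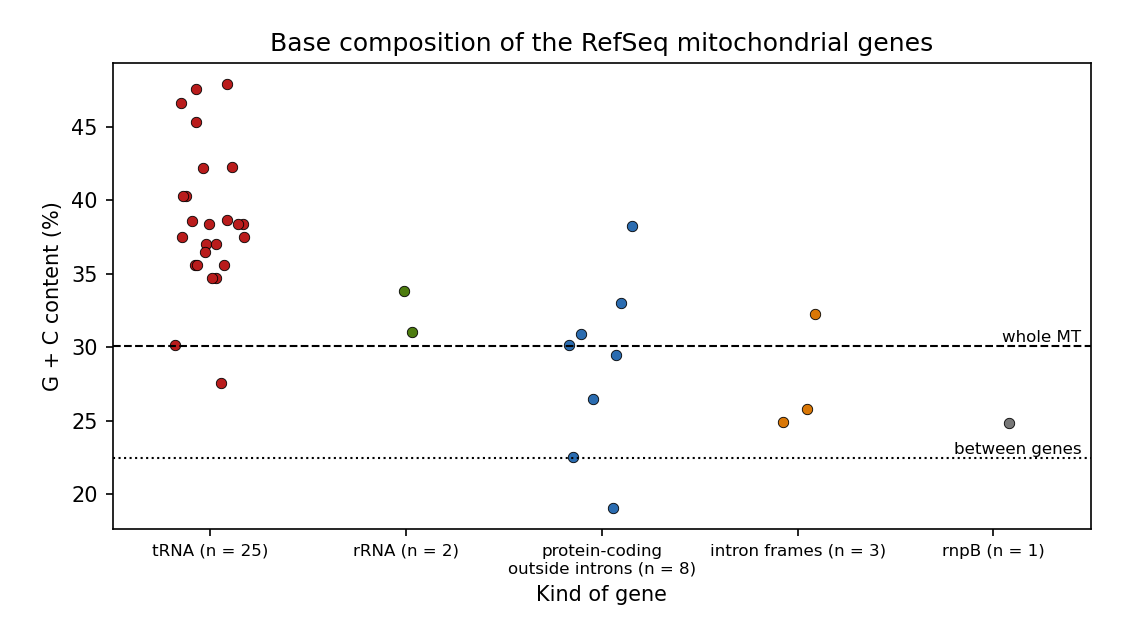
G and C content in percent of each gene on the RefSeq mitochondrial sequence, by kind of gene, with 1 point per gene. The dashed line is the whole sequence (30.1%) and the dotted line the bases between genes (22.5%); 24 of the 25 tRNA points lie above the dashed line and atp8 lies lowest of all genes.

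Almost all of the mitochondrial sequence had no exact copy of 50 bases in the nuclear chromosomes. Copies with mismatches were not counted, so the shares below are upper limits for what reads can tell apart. Of 19433 positions of the RefSeq sequence, taken as a circle, 19322 (99.4%) began a 50-base sequence found once in the genome on either strand. The other 111 positions all had a copy in a nuclear chromosome, and they lay in 3 stretches of 2 mitochondrial genes. The longest, 147 bases at MT:7225-7371 in the endonuclease frame of the second cox1 intron, matched chromosome II at II:36903-37049. A second stretch of the same frame, 55 bases at MT:7503-7557, matched II:37187-37241, a little further along the same strand. The third, 56 bases at MT:18780-18835 in cox2, matched the opposite strand of chromosome I at I:3810379-3810434. Reads that fall wholly inside these stretches cannot be placed by sequence alone. How the submitters treated such reads is not known from the labels.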

How the data were processed

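The series holds chromatin immunoprecipitation sequencing samples. Per the submitters' processing notes, the tools were bedtools, deepTools 2.5.3, SAMtools, Bowtie2 and BWA, with build ASM294v2. Their settings were not given in the sources used. The deposited files used here are 2 reference files of the whole series, a gene annotation and a list of sequence lengths, and their values are positions and lengths in bases with no normalisation. Depth per sample is unknown.

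An intron is the interval between consecutive exons of a gene, and a nested gene lies wholly inside an intron. On MT, gaps were taken between neighbours on a circle, without nested genes. On the nuclear chromosomes, genes on either strand that lay wholly within the span of earlier genes were left out. This gave 6169 gaps for 6968 genes, with overlaps counted as negative gaps. A run is 1 or more tRNA genes with no longer gene between them. Coding sequence includes stop codons. Nuclear values cover 6968 genes on 12570970 bases of chromosomes I, IIc and III. All 38 members may be named, and the members, their groups by role and the measures were chosen with earlier results of these data known. Sequences, codons and base composition come from RefSeq assembly ASM294v3, another build, and are given with its own coordinates. Pairing genes by overlap compared positions of the builds directly, and the deposited ends of SPMIT.03 were placed on the RefSeq frame by codon number. tRNA genes were aligned globally with Biopython 1.88. The interval measures were tested on 200 simulated annotations and recovered in 200. Neighbours in these did not overlap, as on MT, so the handling of overlapping nuclear genes was not tested. Alternatives changed which spans, lengths and nuclear genes count, the sequence ends, the gap that breaks a run and the sequence length of 50 bases. Python 3.11.15, numpy 2.4.6 and matplotlib 3.10.9 were used.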

Additional observations from a re-analysis of the deposited data

How the results depend on the processing

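The coding share of MT (54.1%) depended on what was counted: it was 31.8% without the genes inside introns, 85.5% with the exons of all genes, 87.99% with whole gene spans and 55.2% in the RefSeq annotation, an alternative chosen after seeing the data. It was 53.9% without stop codons and 54.4% with the last annotated base as the length. Relative to the nuclear chromosomes together, the coding share of MT, with the genes inside introns counted, differed by -2.87 percentage points. The difference was -5.15 points against chromosome I and -2.98 against IIc, and it turned round against chromosome III, where it was 2.50 points. The median gap on MT was 64 bases shorter than the nuclear one (a difference of -64), and -156 bases without nuclear non-coding RNA genes and pseudogenes, whose removal leaves fewer genes and wider gaps. Against single chromosomes it was -56 to -75 bases. Overlapping nuclear neighbours entered these medians as negative gaps, while no MT neighbours overlapped. The median gap of 32 bases became 29 on a linear sequence or with nested genes included. The 8 runs of tRNA genes became 10 when broken at gaps over 50 or over 100 bases. The share on the forward strand (100%) and the equal median length of mitochondrial and nuclear tRNA genes did not move under their alternatives, and the share of unique positions was 99.1% with 36 bases and 99.8% with 100, lengths chosen after seeing the data. No paired analysis was possible because no result comes from a test and no sample value was used; for the same reason no replicate could be left out.

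The results describe 1 annotation and hold only as far as its gene ends do. The build of the sequences printed is not that of the deposited coordinates. No value bears on transcription, RNA processing or protein binding.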
